A study of Rattus norvegicus with 6 samples.

Results

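The genes described here encode the proteins that end the light response of rod and cone photoreceptors and restore the dark state. They are 10 of the 28358 genes in the tables, chosen by name from the pathway, with earlier results of these data known. The 10 are Sag, Grk1, Rcvrn, Rgs9, Rgs9bp, Gnb5, Guca1a, Guca1b, Gucy2d and Gucy2f. All 10 were counted in all 6 libraries and all 10 passed the filter on low counts, which kept 13242 genes. The neuroretinas came from 14-month-old male GK (Goto-Kakizaki) rats, which become diabetic without obesity. Into the vitreous, 5 µL of microspheres of PLGA, a degradable polymer, had been injected once, 2 months earlier. In the spironolactone group (3 samples) they carried 6.2 µg of spironolactone, a mineralocorticoid receptor antagonist, and in the non-loaded group (3 samples) no drug. Both groups therefore share the diabetic strain and the injected polymer, and no uninjected or non-diabetic retina was analysed here. The labels do not tie each sample to its own animal, so the error behind each p-value is that between samples and may in part be technical.

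In a photoreceptor, the light-activated receptor switches on transducin, transducin switches on the phosphodiesterase PDE6, and the fall in cGMP closes the cation channels. Recovery needs each step to be undone. The receptor is phosphorylated by the receptor kinase Grk1, which the calcium sensor recoverin (Rcvrn) restrains, and is then capped by arrestin (Sag). Transducin is switched off by the GTPase-accelerating complex of Rgs9, Gnb5 and the membrane anchor Rgs9bp. The membrane guanylyl cyclases Gucy2d and Gucy2f refill cGMP when calcium falls, under control of the activating proteins Guca1a and Guca1b.

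Libraries held between 9996198 and 12589466 expected counts, and the 10 genes between 80307 and 101568 of them. Values are given as CPM, counts scaled with TMM factors to a common library total, or as TPM, which also takes account of transcript length, where genes are set against each other. A positive log2 fold change means higher with spironolactone, and a gene is called when its adjusted p in edgeR's quasi-likelihood test over all tested genes is under 0.05. By that rule 348 genes were called, 247 higher and 101 lower. On log2(TPM + 1) with limma there were 82 higher and 18 lower. All 5 rod markers were counted in every library. Of the 4 lens markers only Lim2 was at 0 in all 6 libraries. Bfsp2 had 43 to 89 counts per library, Bfsp1 5 to 23 and Cryaa 1 to 9.

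Of the 10 genes, 1 was called, and it was lower: Rcvrn. Over all tested genes 2.63% were called, 1.87% higher and 0.763% lower. The groups did not overlap for 3 of the 10 (Sag, Rcvrn and Guca1a) in CPM, against 20.9% of all tested genes, and on TPM Sag and Guca1a overlapped. The median log2 fold change of the 10 was −0.03, beside 0.00 over all tested genes, and the median size of the change was 0.08 beside 0.11.

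**Figure D1:**
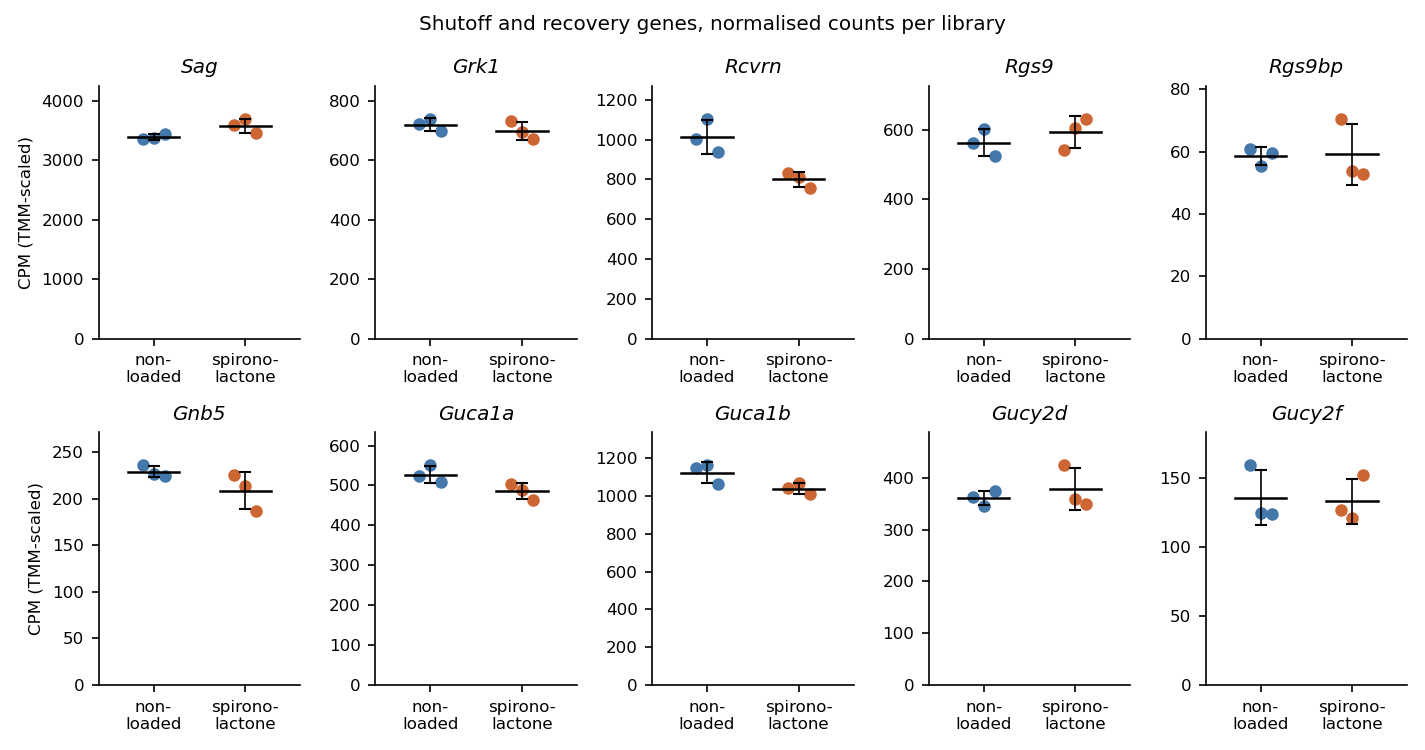
Normalised counts (CPM, TMM-scaled, axis from 0) of each shutoff and recovery gene in the 3 non-loaded (blue) and 3 spironolactone (orange) libraries, with group mean (line) and SD (bar). Rcvrn lies between 936 and 1104 CPM without the drug and between 758 and 833 CPM with it. The other 9 genes did not pass the test.

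Recoverin is the calcium-binding protein that holds the receptor kinase back in the dark. Rcvrn measured 1001, 1104 and 936 CPM in the non-loaded libraries and 833, 812 and 758 CPM in the spironolactone libraries. All 3 treated libraries lay below all 3 control libraries. The group values were 1014 ± 84.7 and 801 ± 38.7 CPM (SD, n = 3 each), and Rcvrn fell by 0.34 ± 0.07 on the log2 scale (SE; edgeR, adjusted p = 0.00872). In percent this was −21.0% with a 95% interval of −28.2% to −13.0%. Among genes that were lower, Rcvrn had rank 32 by p, and among all tested genes rank 121. The call was lost without non-loaded replicate 2 (log2 fold change −0.28, adjusted p = 0.0691) or spironolactone replicate 2 (−0.35, adjusted p = 0.0728), and on log2(TPM + 1) with limma (−0.32, adjusted p = 0.0924). Over 19 alternatives its adjusted p ran from 5.18e-05 (DESeq2) to 1. With the number in the sample titles as a covariate the difference was −0.05 ± 0.20 (adjusted p = 1), but that number follows the group (r = 0.953), so the 2 cannot be told apart.

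**Figure D2:**
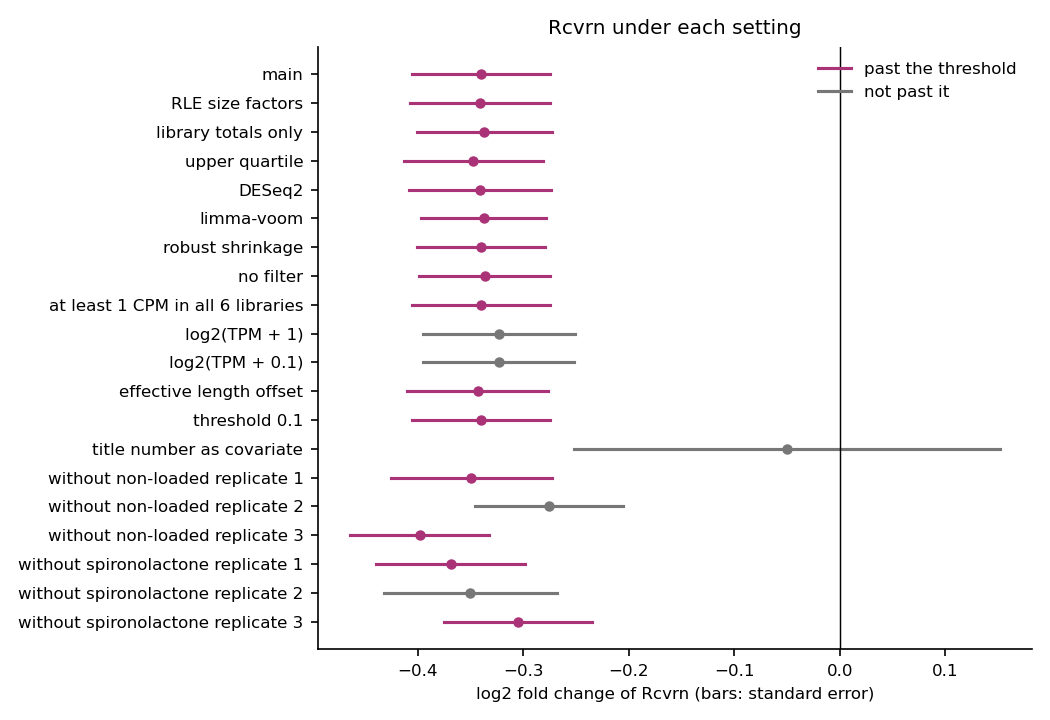
Log2 fold change of Rcvrn (points) with its standard error (bars) in the reported fit (top) and under each other setting. It lies between −0.40 and −0.28 in every fit drawn except that with the title number as a covariate (−0.05), and grey points did not pass the threshold.

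In bulk tissue, fewer photoreceptors and less RNA per photoreceptor cannot be told apart. The 5 rod markers summed to between 14948 and 19344 CPM in the non-loaded and between 12552 and 13695 CPM in the spironolactone libraries, without overlap, and 2 of the 5 were called lower (Gnat1 and Nr2e3). Most of that difference was Gnat1: a sum of the other 4 rod markers, taken after the values were seen, was 7286 to 7981 and 7071 to 7360 CPM, with overlap. Among those 4, the log2 fold change was −0.40 ± 0.09 for Nr2e3 (edgeR, adjusted p = 0.0232) and −0.22 ± 0.08 for Nrl (adjusted p = 0.161). For Pde6a and Pde6b it was −0.08 and −0.10, neither called. The 6 cone markers overlapped in their sum, with 237 to 277 and 215 to 246 CPM, and 0 were called. All 5 rod and all 6 cone markers had negative log2 fold changes, with medians of −0.22 and −0.13. Markers of the pigment epithelium, the layer next to the photoreceptors, summed to 113.7, 122.6 and 95.6 CPM in the non-loaded libraries. In the spironolactone libraries the sums were 109.6, 92.8 and 46.4 CPM, by far the lowest in replicate 3. Of these 5 markers 0 were called and none was at 0. All 5 had negative log2 fold changes, from −0.60 to −0.02. The part of any of these in the Rcvrn difference was not tested.

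The receptor kinase itself was not called. Grk1 measured 722, 739 and 698 CPM and then 732, 695 and 672 CPM with spironolactone, so the groups overlapped. Its log2 fold change was −0.04 ± 0.06 (edgeR, adjusted p = 0.786), and its 95% interval ran from −10.5% to 5.59%. Within each library the ratio of Rcvrn to Grk1, which does not depend on scaling between libraries, was 3.87, 4.18 and 3.74 TPM per TPM without the drug. With spironolactone it was 3.18, 3.24 and 3.14, below every control library. The log2 ratio differed by −0.30 between the groups, which gave the smallest p that 3 against 3 allows (exact two-sided permutation p = 0.1, 0.24 adjusted over the 12 ratios computed).

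Arrestin is the protein that caps the phosphorylated receptor, and Sag is the most abundant of the 10 genes. Sag measured 3351, 3362 and 3436 CPM in the non-loaded and 3588, 3690 and 3454 CPM in the spironolactone libraries. The 2 groups did not overlap, but the difference was small (log2 fold change 0.08 ± 0.06, edgeR, adjusted p = 0.527, 95% interval −2.57% to 14.8%). On TPM the groups did overlap, with 5965 to 6419 and 6284 to 6790. The ratio of Grk1 to Sag, 0.103 to 0.111 TPM per TPM in the controls and 0.0963 to 0.103 with the drug, overlapped between the groups (exact permutation p = 0.2, adjusted 0.343).

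The 3 parts of the GTPase-accelerating complex gave no call. Rgs9, the catalytic subunit, measured 563, 601 and 525 CPM and then 542, 605 and 631 CPM (0.07 ± 0.07, edgeR, adjusted p = 0.652). The groups overlapped, with the highest value in spironolactone replicate 3. The Rgs9 difference was 0.024 without that library and 0.022 without non-loaded replicate 3. In the RefSeq gene table an uncharacterised lncRNA gene overlaps Rgs9, and without strand in the counting its reads could not be told apart. Gnb5, the beta subunit without which Rgs9 is unstable, measured 236, 227 and 224 CPM and then 226, 213 and 187 CPM. Its log2 fold change was −0.13 ± 0.07 (edgeR, adjusted p = 0.351), with a 95% interval of −17.4% to 0.558%, and it was −0.063 without spironolactone replicate 3. The same library that was highest for Rgs9 was lowest for Gnb5.

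Rgs9bp, the anchor that ties the complex to the disc membrane, was the least counted of the 3. It measured 60.9, 55.2 and 59.6 CPM and then 70.5, 53.9 and 52.9 CPM (0.01 ± 0.10, edgeR, adjusted p = 0.976). Spironolactone replicate 1 was the highest of all 6 and the other two treated libraries the lowest, so the direction turned without replicate 1 (−0.13, adjusted p = 0.409), and it also turned without non-loaded replicate 2 (−0.03, adjusted p = 0.935). The interval with all libraries, −12.5% to 16.1%, is the widest in this complex. Per transcript length Rgs9bp stood at 0.342 to 0.532 of Rgs9, and Gnb5 at 0.747 to 1.08 of Rgs9. Both ratios overlapped between the groups (exact permutation p = 0.8 and 0.2, adjusted 0.8 and 0.343, where the smallest possible p is 0.1).

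The cyclase genes were measured at unlike levels. Gucy2d, which the RefSeq gene table lists with the synonym RETGC-1 for the retinal cyclase, measured 363, 346 and 374 CPM and then 424, 359 and 350 CPM (0.06 ± 0.07, edgeR, adjusted p = 0.713). Spironolactone replicate 1 was again the highest, and without it the difference was −0.03 (adjusted p = 0.874). Gucy2f, the second photoreceptor cyclase, measured 159, 125 and 124 CPM and then 127, 121 and 152 CPM (−0.03 ± 0.09, edgeR, adjusted p = 0.935). One library in each group stood above the rest. Gucy2d exceeded Gucy2f by 2.41 to 3.54 times per transcript length, and the groups overlapped (exact permutation p = 0.7, adjusted 0.764). Gucy2e, which in this annotation is the olfactory cyclase GC-D, had 0 counts in 5 libraries and 1 in the other, so its reads do not add to the retinal cyclase signal.

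Neither of the calcium-sensing activators of these cyclases was called. Guca1a measured 522, 550 and 509 CPM and then 504, 488 and 465 CPM, with no overlap between the groups, though on TPM spironolactone replicate 1 reached above non-loaded replicates 1 and 3. Its log2 fold change was −0.12 ± 0.06 (edgeR, adjusted p = 0.326, 95% interval −15.3% to 0.153%). Guca1b measured 1146, 1161 and 1061 CPM and then 1039, 1067 and 1009 CPM, where spironolactone replicate 2 reached above non-loaded replicate 3. Its log2 fold change was −0.11 ± 0.06 (edgeR, adjusted p = 0.361, 95% interval −15.0% to 0.611%). With effective lengths as an offset it was −0.083 for Guca1b and −0.12 for Guca1a, and on log2(TPM + 1) −0.065 and −0.10. The ratio of Guca1a to Guca1b moved little, from 0.816, 0.854 and 0.859 to 0.859, 0.798 and 0.806 (exact permutation p = 0.4, adjusted 0.533). The ratio of Guca1a to its target cyclase Gucy2d was 5.88, 6.50 and 5.55 in the controls and 4.86, 5.51 and 5.42 with the drug, without overlap but by a narrow gap (exact permutation p = 0.1, adjusted 0.24).

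**Figure D3:**
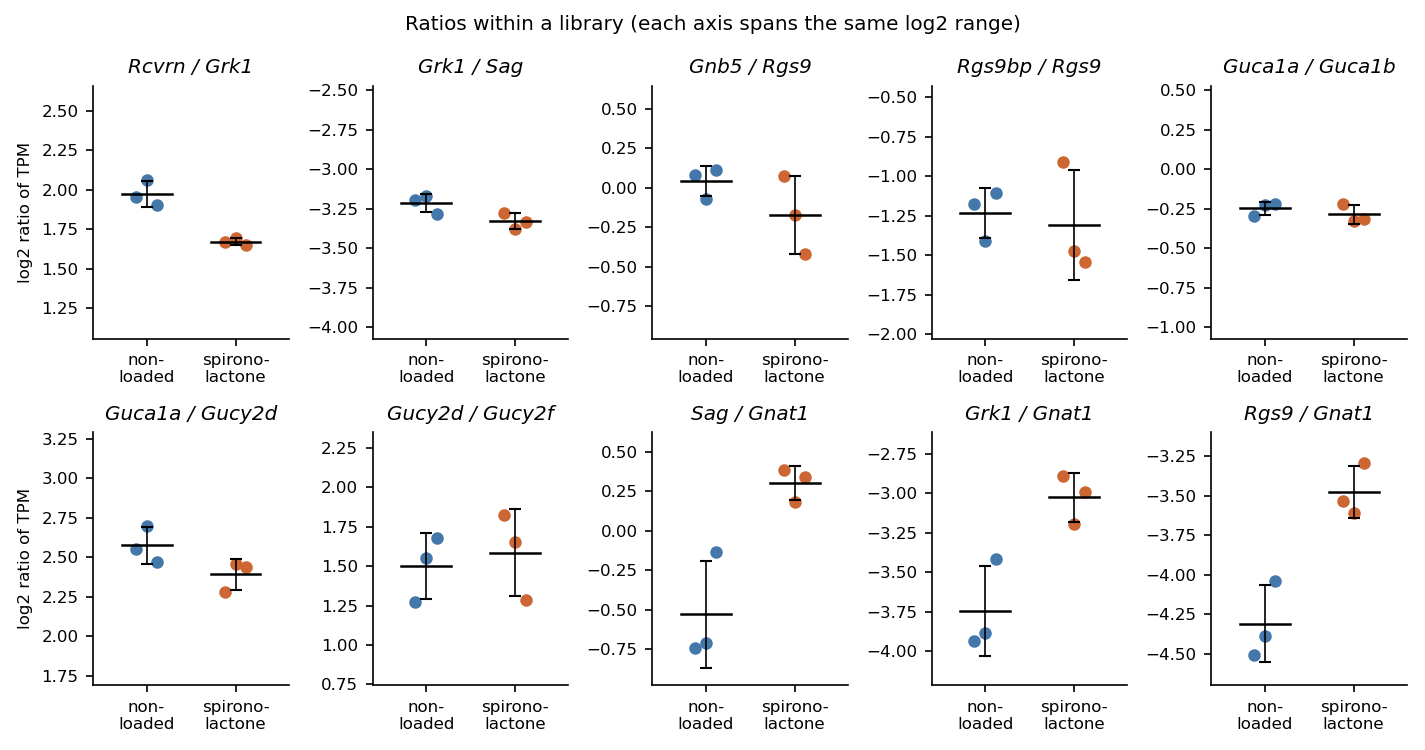
Log2 ratio of TPM of pairs of genes within each library (points; line: group mean, bar: SD, 3 libraries per group), every axis spanning the same range. Rcvrn to Grk1 is lower in all 3 spironolactone libraries, while Sag, Grk1 and Rgs9 are higher relative to Gnat1, which was itself called lower.

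Guca1a and Guca1b are next to each other in the RefSeq gene table and point toward each other, so their starts lie apart. The 250 bases before the start of each are shown, because the 2 activator genes are neighbours. Gucy2f is shown as the member with the most Crx cores and Sag as the one with an Nrl core. Sequences come from RefSeq on GRCr8, another build than the rn6 of the files, at chr9:21086392-21086641 (plus strand, Guca1a), chr9:21105108-21105357 (minus strand, Guca1b), chrX:110605018-110605267 (minus strand, Gucy2f) and chr9:95916947-95917196 (plus strand, Sag). They run 5′ to 3′ toward the start site, with capitals marking TAATCC (the core bound by Crx, the photoreceptor homeobox factor) or TGCTGA (a core of the site bound by Nrl, the rod leucine zipper factor), each on either strand.
Guca1a: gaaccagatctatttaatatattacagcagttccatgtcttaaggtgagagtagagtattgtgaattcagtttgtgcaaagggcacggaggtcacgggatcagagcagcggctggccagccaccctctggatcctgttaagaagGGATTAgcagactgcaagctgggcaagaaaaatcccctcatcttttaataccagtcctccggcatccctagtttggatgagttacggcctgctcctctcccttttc
Guca1b: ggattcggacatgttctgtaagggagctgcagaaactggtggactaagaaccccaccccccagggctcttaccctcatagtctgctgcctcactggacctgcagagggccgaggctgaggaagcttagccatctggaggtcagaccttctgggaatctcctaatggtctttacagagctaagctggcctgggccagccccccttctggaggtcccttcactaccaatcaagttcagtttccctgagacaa
Gucy2f: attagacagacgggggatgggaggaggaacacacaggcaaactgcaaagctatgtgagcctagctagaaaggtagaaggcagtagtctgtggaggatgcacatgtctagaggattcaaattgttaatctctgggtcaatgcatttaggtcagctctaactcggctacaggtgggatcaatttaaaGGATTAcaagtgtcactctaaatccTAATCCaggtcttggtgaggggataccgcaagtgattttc
Sag: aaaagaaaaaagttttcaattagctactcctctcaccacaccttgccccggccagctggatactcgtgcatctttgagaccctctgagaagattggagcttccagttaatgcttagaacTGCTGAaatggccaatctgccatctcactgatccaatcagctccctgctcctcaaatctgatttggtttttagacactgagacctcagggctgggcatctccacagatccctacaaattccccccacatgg

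The table held promoters for 8 of the 10 members, without Grk1 and Rcvrn. TAATCC on either strand occurred before Guca1a, 1 time and 101 to 106 bases upstream, and before Gucy2f, 2 times at 60 to 65 and 35 to 40 bases upstream. It occurred in 6.33% of 27457 promoters of that length. TGCTGA occurred before Sag only, 126 to 131 bases upstream, and in 15.2% of all promoters. AAGGTCA, a core bound by nuclear receptors, occurred in 0 of the 8 and in 3.77% of all. These motifs do not overlap each other in the 4 sequences, and a match describes letters only.

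RSEM's abundance-weighted gene length shows how it divided reads between the annotated transcripts of a gene. For Guca1b (2 transcripts) this length was 1645, 1654 and 1646 bases in the non-loaded and 1628, 1614 and 1612 bases in the spironolactone libraries. All 3 treated libraries were shorter, at the smallest p that 3 against 3 samples allow (two-sided exact permutation p = 0.1, a test added after the values were seen). For Sag (3 transcripts) it was 1150.9 to 1151.6 and 1151.6 to 1158.7 bases. Gnb5 and Guca1a also have 2 transcripts, but for each gene this weighted length was the same in every library, so nothing can be read there. The models of Rgs9bp (714 bases), Gnb5 (1056) and Guca1a (990) are multiples of 3, which a coding length without UTRs would be. A length with UTRs can be a multiple of 3 too, so whether TPM of these genes rests on coding bases only cannot be read from it.

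Per transcript length the 10 genes covered a wide range. Sag stood at 6170 ± 230.0 TPM in the controls (rank 12 of all genes by median), followed by Rcvrn at 2607 ± 152, Guca1b at 1362 ± 38.2 and Guca1a at 1148 ± 16.9 TPM (SD, n = 3 each). Grk1 followed at 664 ± 4.02, Gnb5 at 462 ± 16.0 and Rgs9 at 449 ± 18.6 TPM. At the end were Gucy2d at 193 ± 12.6, Rgs9bp at 191 ± 13.6 and Gucy2f at 68.5 ± 10.4 TPM. Over all 6 libraries the ranges of neighbouring genes overlapped only for Rgs9 with Gnb5 and for Gucy2d with Rgs9bp. Rcvrn kept its place in this order with spironolactone, at 2085 ± 134 TPM. The 10 genes together made up 1.33% to 1.34% of TPM in the controls and 1.25% to 1.36% with the drug, and Sag took 45.0% to 48.0% and 49.8% to 50.9% of that sum.

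**Figure D4:**
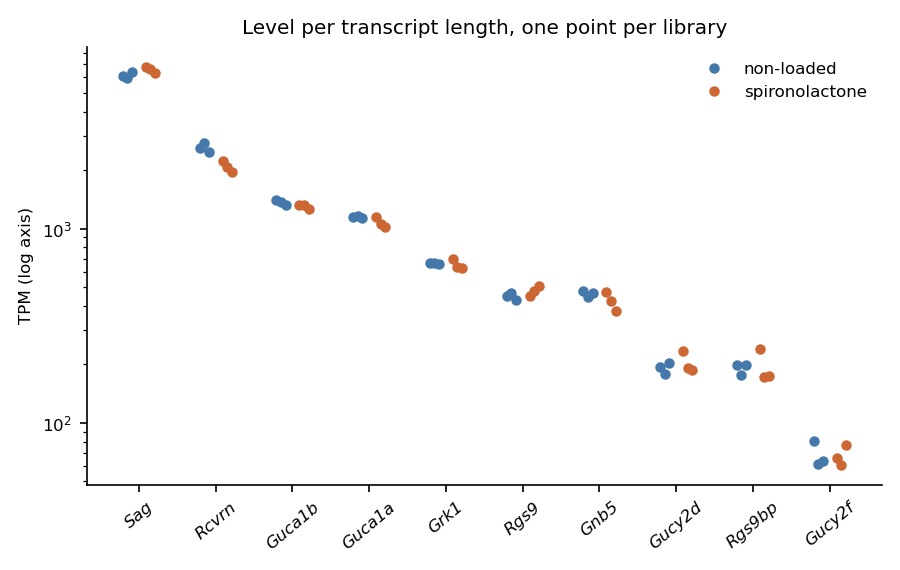
Level of each gene in TPM (log axis), one point per library, genes ordered by their median over the 6 libraries. Sag lies between 5965 and 6790 TPM and Gucy2f between 60.8 and 80.4 TPM, and only Rgs9 with Gnb5 and Gucy2d with Rgs9bp overlap as neighbours.

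The genes that switch the response on were measured for comparison. Of 8 activation genes 4 were called lower and 0 higher (Gnat1, Gnb1, Pde6g and Cngb1), beside 0.763% lower and 1.87% higher over all tested genes. All 8 had negative fold changes, and the median was −0.22. Gnb1, the beta subunit of rod transducin, had 4595, 4821 and 4140 CPM and then 3701, 3468 and 3159 CPM (−0.39 ± 0.07, edgeR, adjusted p = 0.00515). Pde6g, the inhibitory PDE6 subunit, had a log2 fold change of −0.40 ± 0.08 (adjusted p = 0.0118) and the channel subunit Cngb1 of −0.29 ± 0.07 (adjusted p = 0.0328). The catalytic PDE6 genes Pde6a (−0.08 ± 0.06, adjusted p = 0.601) and Pde6b (−0.10 ± 0.06, adjusted p = 0.469) and the channel gene Cnga1 (−0.10 ± 0.06, adjusted p = 0.459) did not pass. Neither did Gngt1 (−0.16 ± 0.06, edgeR, adjusted p = 0.232). With the title number as a covariate 0 genes were called, so the 4 activation calls were lost there. Their dependence on the other settings is not reported here.

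**Figure D5:**
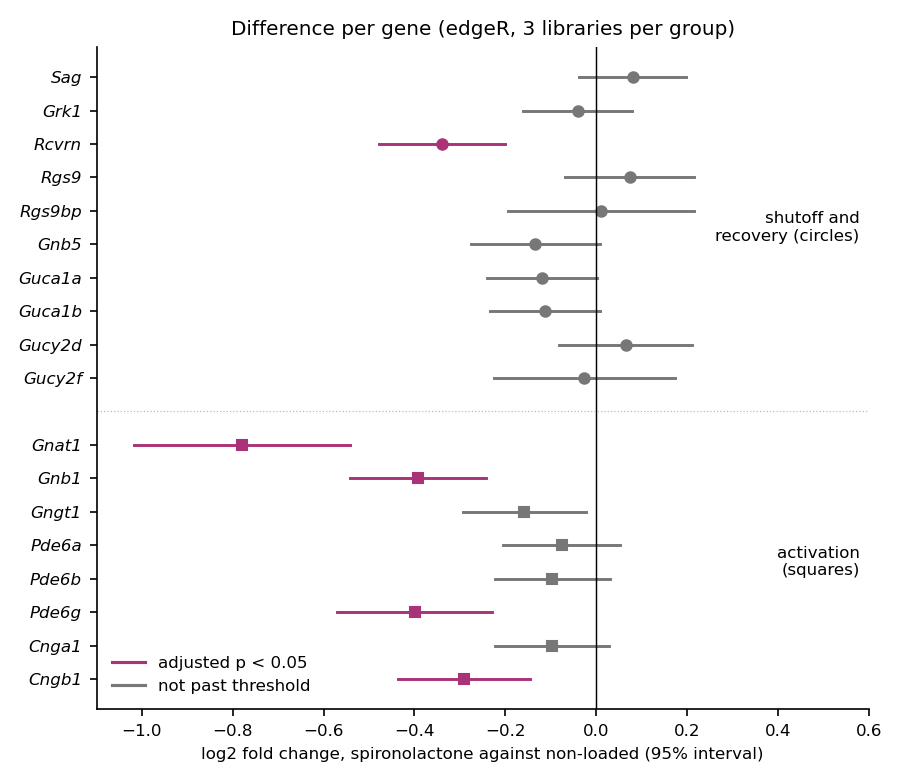
Log2 fold change (spironolactone against non-loaded, 3 libraries each) with its 95% interval for the 10 shutoff and recovery genes (circles) and 8 activation genes (squares), coloured where called. Rcvrn is the only circle past the threshold, against 4 of the 8 squares.

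Shutoff genes were also set against Gnat1, the rod transducin alpha subunit, within each library. Gnat1 itself fell, from 11363, 11180 and 7662 CPM to 5570, 6541 and 5482 CPM (−0.78 ± 0.11, edgeR, adjusted p = 0.000705). Sag to Gnat1 was 0.598, 0.610 and 0.909 TPM per TPM in the controls and 1.31, 1.13 and 1.27 with spironolactone. Rgs9, whose protein acts directly on transducin alpha, stood at 0.0440, 0.0477 and 0.0609 of Gnat1 and then at 0.0864, 0.0821 and 0.102. Grk1 to Gnat1 was 0.0653, 0.0678 and 0.0935, then 0.135, 0.109 and 0.126. None of these 3 ratios overlapped between the groups, and the log2 differences were 0.83, 0.83 and 0.72 (exact permutation p = 0.1 each, adjusted 0.24). The log2 fold changes of Sag, Rgs9 and Grk1 themselves were 0.08, 0.07 and −0.04, none called. Non-loaded replicate 3 was nearest to the treated libraries in all 3. By contrast Guca1a to Pde6b, a catalytic PDE6 gene, was 0.771 to 0.775 in the controls and 0.745 to 0.773 with the drug (exact permutation p = 0.3, adjusted 0.45).

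Other genes with a part in rod recovery or calcium handling gave 0 calls among 6 tested (median −0.03), beside 2.63% over all tested genes. Among them were Rd3, which carries the cyclases to the outer segment (0.00 ± 0.06, edgeR, adjusted p = 0.987), Pdc, which binds transducin beta-gamma (−0.03 ± 0.06, adjusted p = 0.851), and the exchanger gene Slc24a1 (−0.16 ± 0.07, adjusted p = 0.307). In the cone cascade 0 of 11 were called (median −0.13). Nearest to the threshold was the cone transducin gamma gene Gngt2 (−0.46 ± 0.12, adjusted p = 0.0512), named after its value was seen. Cone arrestin, Arr3, overlapped between the groups, at 36.8, 36.9 and 46.7 CPM and then 39.8, 38.5 and 25.0 CPM (−0.22 ± 0.14, adjusted p = 0.481). Sag exceeded Arr3 by 55.5 to 111.5 times per transcript length.

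Relatives of the members outside photoreceptor shutoff also gave no call. Over all tested genes 2.63% were called, so no call in lists this short says little. Those were 0 of 2 tested R7 RGS genes (Rgs6 and Rgs7, median 0.03), 0 of 7 other arrestin and receptor kinase genes (median −0.04) and 0 of 2 tested membrane guanylyl cyclases (Npr1 and Npr2, median −0.25). Of 6 other neuronal calcium sensor genes, the family of recoverin, 0 were called (median 0.01), with Hpcal1 at 0.16 ± 0.06 (edgeR, adjusted p = 0.211) and Ncs1 at −0.18 ± 0.07 (adjusted p = 0.210). The genes whose profile over the 6 libraries was most like that of Rcvrn, by the root mean square difference of centred log2 CPM, were Churc1 (0.034), Smarcd1 (0.042) and Gnb1 (0.044). The same measure of Rcvrn against a flat profile was 0.187. The measure includes the difference between the groups. Fold changes near that of Rcvrn therefore follow from how these genes were picked and are no separate result. Of the 3, Smarcd1 (−0.38 ± 0.07, edgeR, adjusted p = 0.00552) and Gnb1 were called, and Churc1 was not (−0.33 ± 0.15, adjusted p = 0.311).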

How the data were processed

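RNA of the neuroretina was sequenced in 6 samples after stranded mRNA library preparation, per the labels' protocols. The submitters' processing notes name FastQC, Trimmomatic, STAR 2.5.3a, RSEM 1.2.28 and rn6, without roles; the sources used here give no annotation version and no strand setting. Per the file headers the authors deposited RSEM expected counts (unnormalised), TPM, FPKM (not used) and gene lengths. Expected counts were rounded, filtered with filterByExpr and tested in R 4.3.3 with edgeR 4.0.16 (quasi-likelihood test by glmQLFit and glmQLFTest on TMM factors, two-sided). Benjamini-Hochberg adjustment ran over 13242 genes. The test was checked on simulated counts. Ratios were taken on TPM and compared by exact permutation, for 12 of 14 pairs, because Gucy2e was at 0. Some listed genes are not reported here, and Rgs11, Rgs7bp, Adrbk1, Adrbk2, Pecam1 and Hba-a1 were not analysed here. Groups came from the treatment label. Every member was named, and other genes came from lists and a likeness rule. Members and lists were chosen with earlier results of these data known. Alternatives were other scalings, filters and thresholds, DESeq2 1.42.0, limma 3.58.1 (voom, or trend on log2 TPM), length offsets, the title number and each library left out.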

Additional observations from a re-analysis of the deposited data

How the results depend on the processing

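The call of Rcvrn, the only one among the 10 genes, was kept in 14 of 19 alternatives, and its direction in all 19. The threshold of 0.1 reuses the reported fit, so it could change neither, and robust shrinkage could not change the direction. The number of the 10 called was 0 on log2(TPM + 1) and log2(TPM + 0.1) with limma and 0 with the title number as a covariate, and between 0 and 1 when leaving out each library in turn. Over all tested genes the counts were 602 without a filter, 100 on log2(TPM + 1), 95 on log2(TPM + 0.1), 593 at a threshold of 0.1, and 111 to 621 without each library. With the title number in edgeR, the only tool run with it, 0 genes were called and 562 had an unadjusted p below 0.05. That fit also turned the direction of 6 genes that were not called, Grk1 (0.20), Rgs9 (−0.18), Gnb5 (0.32), Guca1a (0.093), Guca1b (0.044) and Gucy2f (0.0067). Its largest differences were those of Rgs9bp (0.71 ± 0.26) and Gucy2d (0.46 ± 0.20), which kept their direction and were not called. Rgs9bp turned with limma-voom (−0.0027). Leaving out a library turned some directions among genes that were not called. The ranges were −0.13 to 0.079 for Rgs9bp, −0.026 to 0.11 for Gucy2d and −0.13 to 0.10 for Gucy2f, while Grk1 (−0.074 to −0.016), Rgs9 (0.022 to 0.13) and Gnb5 (−0.19 to −0.063) kept theirs. For the ratio differences the ranges were −0.28 to 0.041 (Rgs9bp to Rgs9) and −0.033 to 0.24 (Gucy2d to Gucy2f). The cause of these changes was not tested. The other 92 of 96 alternative ratio values kept their direction. No paired analysis was possible because the labels give the groups no shared numbers.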

Other observations

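The spread between replicates of a group, as a coefficient of variation of CPM, differed among the 10 genes and was numerically above counting noise for each. In the controls it was smallest for Sag (1.36%, and 3.31% with the drug, beside 0.504% from counting alone). It was wide for Gucy2f (14.8% and 12.3%, beside 2.57%) and for Rgs9bp in the spironolactone group (16.7% beside 3.88%, and 5.10% in the controls). For Rcvrn it was 8.36% and 4.83%, beside 0.988%. In the controls Gnb5 had 2.64% beside 2.01%, with 9.61% in the spironolactone group.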
